A study of Bos taurus with 6 samples.

Results

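The serine and one-carbon metabolism enzymes described here are 10 genes, PHGDH, PSAT1, PSPH, SHMT1, SHMT2, MTHFD1, MTHFD2, MTHFD1L, GLDC and ALDH1L2, of the 19163 genes in the count table. They were chosen by name, as the enzymes of serine synthesis, of the serine to glycine step, of the folate-linked steps after it and of glycine cleavage. Earlier results of these data were known at that point, so counts over the 10 are a description only. All 10 were found by symbol in the deposited TPM table and by Entrez gene identifier in the count table, and the 2 tables pointed to the same genes, since the ratio of count to TPM of each of the 10 was the same in all 6 libraries within 0.01%. The RNA came from F7, a single line of bovine embryonic stem cells (bESCs) derived from in vitro fertilized Holstein Friesian embryos. In MC-F7 the feeder layer was mouse embryonic fibroblasts that mitomycin C had kept from dividing while alive, and in MT-F7 it was the same kind of fibroblast fixed with methanol, and so dead. Both groups had been cultured for 15 passages in a medium with fibroblast growth factor and the Wnt pathway inhibitor IWR1, and the cells that still floated after 25 minutes in a gelatin-coated dish were collected. The medium was changed every day for MC-F7 and every other day for MT-F7, so the state of the feeder layer and the rate of medium change cannot be told apart. Each group had 3 libraries, and whether they came from separate cultures is not stated, so the p values measure the spread between these libraries, which may be technical.

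Serine is made from 3-phosphoglycerate, an intermediate of glycolysis. PHGDH oxidizes it, PSAT1 adds an amino group taken from glutamate, and PSPH removes the phosphate. SHMT1 in the cytosol and SHMT2 in mitochondria then split serine into glycine and a carbon unit carried on folate, which feeds the synthesis of thymidylate, purines and methionine. Pluripotent and other dividing cells are known for running the mitochondrial arm of this cycle (SHMT2, MTHFD2 and MTHFD1L) towards formate, which MTHFD1 takes up again in the cytosol. GLDC is the glycine decarboxylase of the mitochondrial glycine cleavage system, and ALDH1L2 oxidizes formyl-folate in mitochondria.

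The libraries held 21958386 to 24933430 counts on genes. Expression is given as counts per 1000000 counts (CPM) after TMM normalization, with mean ± SD over 3 libraries, and 3 counts, taken as the smallest amount detected, were 0.12 to 0.137 CPM at these depths. This limit covers counting error only. The groups were compared by the quasi-likelihood test of edgeR on the 13001 genes that passed its filter on low counts, with Benjamini-Hochberg adjustment over all of them and a threshold of 0.05, and log2 fold changes are MT-F7 over MC-F7. Genes of the mitochondrial genome took 16.3% to 28.3% of the counts of a library, and replicate 3 had the largest share in each group. Of 10 pluripotent stem cell markers 7 were found by symbol in the count table, and SOX2, LIN28B and TDGF1 were not. Of the 7, none was at 0 and 5 fell, beside 11.3% of all tested genes, while SALL4 and PRDM14 did not pass the test. Their summed level was 1360 to 2031 CPM in MC-F7 and 753 to 880 CPM in MT-F7, and POU5F1 and DNMT3B made up most of it. Of 16 fibroblast markers all were tested and none was at 0. Their summed level was 416 to 511 CPM in MC-F7 and 818 to 892 CPM in MT-F7. FBLN1 alone, named after its values were seen, was at 108 ± 21.0 CPM in MC-F7 and 327 ± 37.5 CPM in MT-F7. Of the 16, 5 rose, 1 fell and 10 did not pass, where 11.9% of all tested genes were higher and 11.3% lower. The study reported that a larger share of reads aligned to the Bos taurus genome in MT-F7 than in MC-F7. It proposes that fixed feeder cells left less feeder contamination in the cultures. The study also reported higher RNA of matrix genes such as fibronectin in MT-F7. From this it proposes that some MT-F7 cells had themselves become feeder-like. From which species or cells the reads on these markers came, and their part in the results below, was not tested. The samples are bulk RNA, so fewer cells of a type and less RNA per cell cannot be told apart.

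Among the 10 enzymes, SHMT2, SHMT1 and MTHFD2 were significantly lower in MT-F7 compared to MC-F7, by 1.67-fold, 1.5-fold and 1.67-fold, and PSAT1 was significantly higher, by 2.11-fold. The remaining 6 (PHGDH, PSPH, MTHFD1, MTHFD1L, GLDC and ALDH1L2) did not pass the test. All 10 passed the filter on low counts. The share that passed was therefore 4 of 10, with 3 lower and 1 higher, where 23.2% of all tested genes passed, 11.3% lower and 11.9% higher. The median log2 fold change of the 10 was -0.19, beside -0.0026 over all tested genes. At an unadjusted p under 0.05 the count was 5 of 10, and 35.8% of all tested genes reached it.

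**Figure D1:**
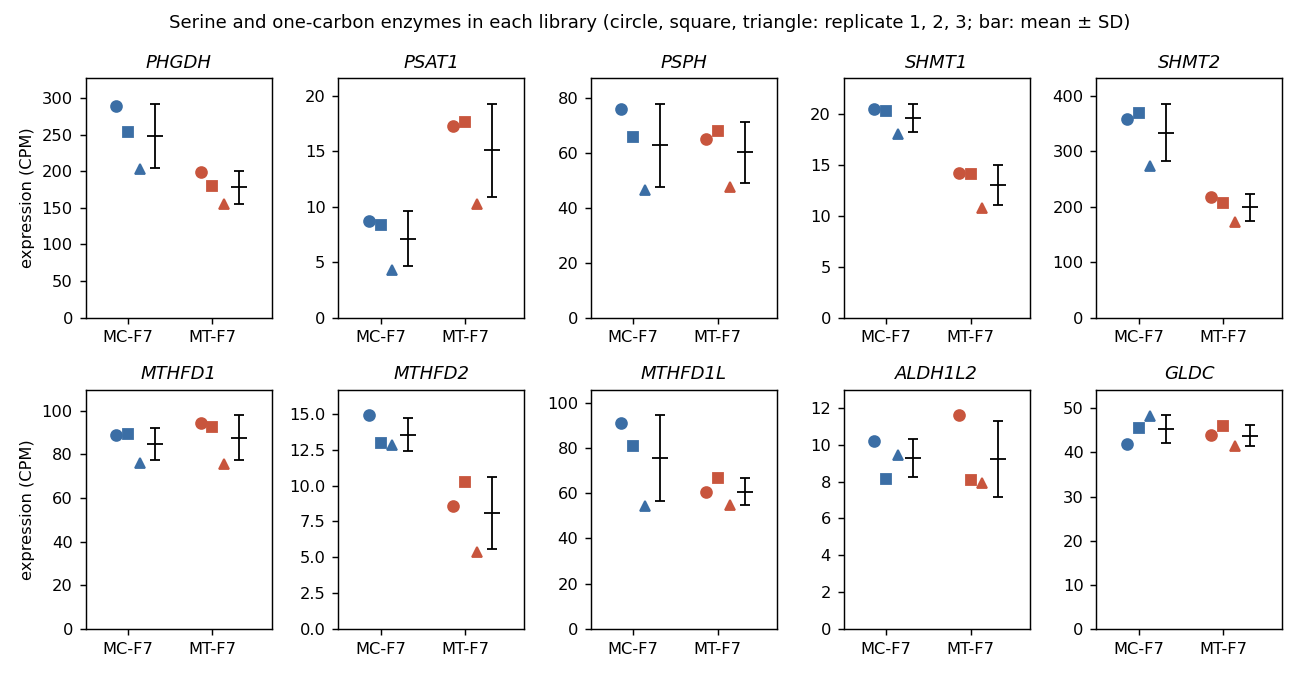
Expression (CPM, y axis from 0) of the 10 enzymes in each of the 3 MC-F7 libraries (blue) and 3 MT-F7 libraries (red), with circle, square and triangle for replicates 1, 2 and 3 and a bar for the mean ± SD. PHGDH, SHMT1, SHMT2 and MTHFD2 show every MT-F7 library below every MC-F7 library, PSAT1 shows the opposite, and the triangle is the lowest point in most panels.

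Of the 3 serine synthesis enzymes PSAT1 rose, and PHGDH and PSPH did not pass the test. PHGDH (Entrez gene 505103), which commits 3-phosphoglycerate to serine, stood at 289, 254 and 203 CPM in MC-F7 and at 199, 180 and 155 CPM in MT-F7. Every MT-F7 library lay below every MC-F7 library, although the gap between the lowest MC-F7 and the highest MT-F7 value was small beside the spread within MC-F7. Its log2 fold change was -0.48 (standard error 0.171, 95% interval -0.85 to -0.11), with an adjusted p of 0.060, so it did not pass. PHGDH passed in 4 of the 17 alternatives. Among these were the fit without MC-F7 replicate 3, with a log2 fold change of -0.61 (adjusted p = 0.016), the Wald test of DESeq2 (-0.48, adjusted p = 0.037), and the fit on the 4 libraries that remain without replicate 3 of both groups (-0.50, adjusted p = 0.0052).

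PSAT1 (533044), the aminotransferase of the next step, was at 8.71, 8.37 and 4.30 CPM in MC-F7 and at 17.3, 17.7 and 10.3 CPM in MT-F7. These values rest on 197, 202 and 92 counts against 435, 458 and 242. The groups did not overlap, and replicate 3 was the lowest library of both. PSAT1 rose by 1.08 on the log2 scale (standard error 0.279, 95% interval 0.48 to 1.69, adjusted p = 0.014). Without MT-F7 replicate 1 the log2 fold change was 0.97 (adjusted p = 0.057) and without MT-F7 replicate 2 it was 0.95 (adjusted p = 0.051), so the call was lost in both cases. PSAT1 was the only one of the 10 enzymes that passed as higher in MT-F7.

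PSPH (533630), the phosphatase that releases serine, was at 75.95, 65.7 and 46.4 CPM in MC-F7 and at 64.8, 67.9 and 47.5 CPM in MT-F7. The groups overlapped across nearly their whole range. The log2 fold change was -0.06 (standard error 0.20, 95% interval -0.49 to 0.37, adjusted p = 0.86), so the interval spans changes in both directions.

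Both serine hydroxymethyltransferases fell. SHMT2 (507197), the mitochondrial enzyme, was at 358, 369 and 274 CPM in MC-F7 and at 219, 207 and 172 CPM in MT-F7. The lowest MC-F7 library was above the highest MT-F7 library by more than the range within MT-F7. Its log2 fold change was -0.74 (standard error 0.169, 95% interval -1.11 to -0.38, adjusted p = 0.0066), and SHMT2 kept its call whichever of the 6 libraries was left out, with log2 fold changes from -0.87 to -0.65. SHMT1 (509002), the cytosolic enzyme, was at 20.5, 20.4 and 18.0 CPM in MC-F7 and at 14.3, 14.2 and 10.8 CPM in MT-F7, again without overlap. Its log2 fold change was -0.59 (standard error 0.173, 95% interval -0.96 to -0.21, adjusted p = 0.027). The call of SHMT1 was near the threshold, since it was kept without MC-F7 replicate 3 and lost in each of the other 5 fits that left out 1 library. In those 5 fits the adjusted p was 0.067 and 0.11 without MC-F7 replicates 1 and 2, and 0.055, 0.053 and 0.055 without MT-F7 replicates 1, 2 and 3.

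Of the enzymes that handle the folate-bound carbon, MTHFD2 fell and the others did not pass. MTHFD2 (517539), the mitochondrial dehydrogenase and cyclohydrolase, was at 14.9, 13.0 and 12.8 CPM in MC-F7 and at 8.60, 10.3 and 5.39 CPM in MT-F7. The MC-F7 libraries were close to each other, and the MT-F7 libraries were all lower but differed by up to 1.90-fold (216, 266 and 127 counts). The log2 fold change was -0.74 (standard error 0.228, 95% interval -1.24 to -0.25, adjusted p = 0.032). It was lost without MC-F7 replicate 1 (-0.67, adjusted p = 0.084), without MC-F7 replicate 2 (-0.77, adjusted p = 0.079), without MT-F7 replicate 1 (-0.79, adjusted p = 0.072) and without MT-F7 replicate 3 (-0.53, adjusted p = 0.060).

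MTHFD1L (534296), the mitochondrial enzyme that releases formate, was at 91.2, 80.9 and 54.5 CPM in MC-F7 and at 60.6, 66.8 and 54.6 CPM in MT-F7. Here replicate 3 of MC-F7 lay below all MT-F7 libraries while replicates 1 and 2 lay above them. The log2 fold change was -0.32 (standard error 0.189, 95% interval -0.72 to 0.09, adjusted p = 0.26). Without MC-F7 replicate 3 it was -0.51 (adjusted p = 0.036), and without replicate 3 of both groups it was -0.42 (adjusted p = 0.013). MTHFD1 (534382), the cytosolic enzyme with 3 activities that takes formate up again, was at 88.7, 89.1 and 76.2 CPM in MC-F7 and at 94.5, 92.4 and 75.7 CPM in MT-F7. Its log2 fold change was 0.05 (standard error 0.152, 95% interval -0.28 to 0.38, adjusted p = 0.85).

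ALDH1L2 (516864), which turns formyl-folate into carbon dioxide and free folate, was at 10.2, 8.17 and 9.45 CPM in MC-F7 and at 11.6, 8.11 and 7.94 CPM in MT-F7. The log2 fold change was -0.009 (95% interval -0.46 to 0.44, adjusted p = 0.98). GLDC (507688) was at 42.0, 45.5 and 48.3 CPM in MC-F7 and at 44.0, 46.0 and 41.4 CPM in MT-F7, with the smallest coefficients of variation of the 10 enzymes in both groups, 6.96% and 5.31%. Its log2 fold change was -0.05 (95% interval -0.36 to 0.27, adjusted p = 0.85).

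**Figure D2:**
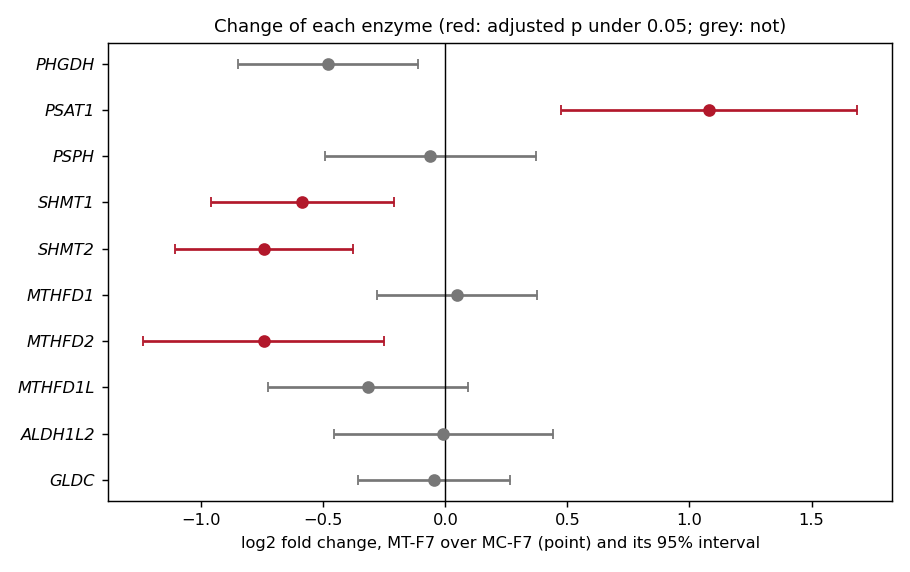
Log2 fold change of MT-F7 over MC-F7 for each enzyme (x axis) with its 95% interval from edgeR's quasi-likelihood test, in red where the adjusted p was under 0.05. PSAT1 stands alone on the right at 1.08, SHMT2 and MTHFD2 are farthest left at -0.74, and the intervals of PSPH, MTHFD1, MTHFD1L, ALDH1L2 and GLDC include 0.

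In all, 5 of the 10 enzymes had groups that did not overlap, 1 with MT-F7 above and 4 with MT-F7 below. Over all tested genes 40% did not overlap, 19.9% with MT-F7 above and 20.1% with MT-F7 below. The 2 replicate 3 libraries were low for these enzymes. Replicate 3 was the lowest of its group for 8 of 10 enzymes in MC-F7 and for 10 of 10 in MT-F7, beside 40.6% and 40.5% of all tested genes. GLDC and ALDH1L2 in MC-F7 were the exceptions. The part of the mitochondrial share in this was not tested. Without both replicate 3 libraries, an alternative added after the data were seen, 6 enzymes passed, which were PHGDH and MTHFD1L in addition to the 4 named above. In that fit 32.4% of the tested genes passed. The same 6 passed without MC-F7 replicate 3 alone, where 23.4% of the tested genes did.

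Levels of different genes can be compared only per length. The deposited TPM values were rescaled so that each library adds up to 1000000. On this scale SHMT2 and PHGDH were the most abundant of the 10 in both groups. SHMT2 stood at 208 ± 38.8 in MC-F7 and 131 ± 20.9 in MT-F7, and PHGDH at 164 ± 31.3 and 125 ± 19.6. SHMT2 was above PHGDH in each of the 6 libraries, although the ranges over the libraries of a group overlapped and the means of MT-F7 differed by less than their SDs. SHMT2 made up 38.8% of the summed level of the 10 enzymes in MC-F7 and 31.4% in MT-F7, and PHGDH 30.7% and 29.8%.

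PSPH came after these in both groups, at 61.3 ± 15.6 rescaled TPM in MC-F7 and 62.3 ± 13.9 in MT-F7, below PHGDH in every library. MTHFD1 (34.99 ± 4.14 and 38.3 ± 6.01) and MTHFD1L (28.2 ± 7.55 and 23.9 ± 3.45) followed. Their ranges overlapped in MC-F7 and did not in MT-F7. GLDC came next at 14.8 ± 1.02 and 15.2 ± 1.496. In MC-F7 the order below it was MTHFD2 (10.3 ± 0.922), SHMT1 (8.13 ± 0.822), PSAT1 (3.53 ± 1.29) and ALDH1L2 (2.11 ± 0.188), of which only PSAT1 and ALDH1L2 overlapped. In MT-F7 PSAT1 (7.93 ± 2.47) stood next to MTHFD2 (6.57 ± 2.27) and SHMT1 (5.75 ± 1.09), with ranges that overlapped between neighbours, and ALDH1L2 (2.23 ± 0.529) was last and apart. SHMT2 was thus above SHMT1, and MTHFD1 above MTHFD2, in every library of both groups.

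A ratio between 2 genes within a library does not depend on how the library was scaled, and 9 such ratios of counts were compared between the groups by an exact two-sided permutation test, in which 3 libraries against 3 cannot give a p below 0.1. The ratio of PSAT1 to PHGDH, the second step of serine synthesis over the first, was 0.0302, 0.0330 and 0.0212 in the MC-F7 libraries, against 0.0870, 0.0982 and 0.0663 in the MT-F7 libraries, 2.99-fold higher without overlap (exact permutation p = 0.1, adjusted over 9 ratios 0.18). PSPH over PSAT1 was 8.72, 7.84 and 10.8 in the MC-F7 libraries, against 3.74, 3.84 and 4.62 in the MT-F7 libraries, 2.23-fold lower without overlap (exact permutation p = 0.1, adjusted 0.18). PSAT1 thus stood higher against both the enzyme before it and the enzyme after it in every MT-F7 library, though neither p passed the threshold, which this design cannot reach.

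Mitochondrial and cytosolic partners were compared in the same way. SHMT2 over SHMT1 was 17.4, 18.1 and 15.2 in the MC-F7 libraries, against 15.3, 14.6 and 15.9 in the MT-F7 libraries, with overlap, and the log2 ratio differed by -0.14 (exact permutation p = 0.3, adjusted 0.34); 3 libraries against 3 could not have passed the threshold at any size of difference. MTHFD2 over MTHFD1 was 0.168, 0.146 and 0.168 in the MC-F7 libraries, against 0.0910, 0.111 and 0.0712 in the MT-F7 libraries, 1.79-fold lower without overlap (exact permutation p = 0.1, adjusted 0.18). MTHFD1L over MTHFD1 overlapped, with a log2 difference of -0.33 (exact permutation p = 0.3, adjusted 0.34), as did ALDH1L2 over MTHFD1L, with a log2 difference of 0.26 (exact permutation p = 0.4).

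**Figure D3:**
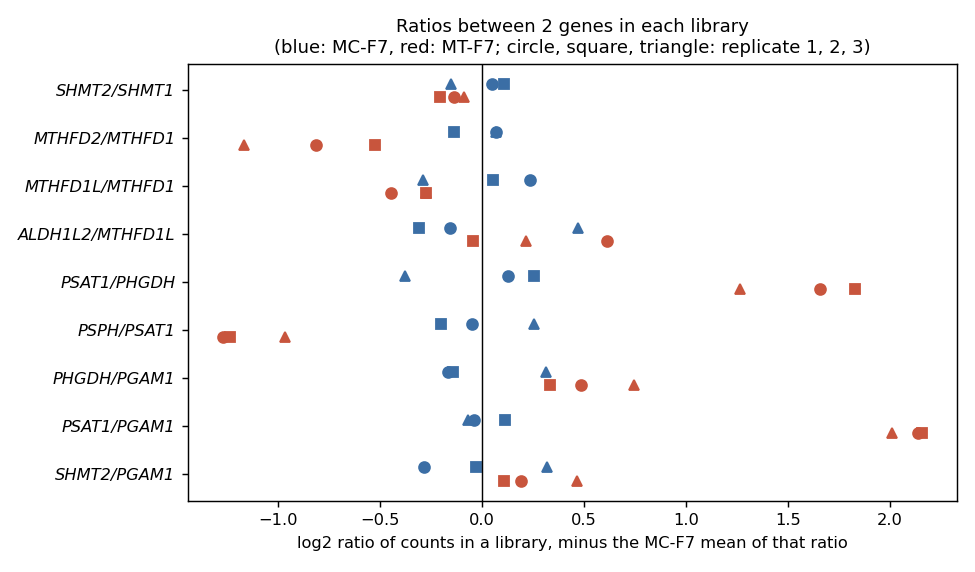
Log2 ratio of the counts of 2 genes in each library minus the MC-F7 mean of that ratio (x axis), for 9 ratios (y axis), in blue for MC-F7 and red for MT-F7, with circle, square and triangle for replicates 1, 2 and 3. PSAT1/PGAM1 is shifted most, by 2.10, and the groups are apart for MTHFD2/MTHFD1, PSAT1/PHGDH, PSPH/PSAT1, PHGDH/PGAM1 and PSAT1/PGAM1.

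At 3-phosphoglycerate the serine branch leaves glycolysis, and PGAM1, a phosphoglycerate mutase, takes the same substrate onward. Of 5 genes for the glycolytic steps around 3-phosphoglycerate (GAPDH, PGK1, BPGM, PGAM1 and ENO1), 4 fell. Over all tested genes 11.3% passed as lower in MT-F7 and 11.9% as higher. PGK1, which makes 3-phosphoglycerate, had a log2 fold change of -2.06 (adjusted p = 2.1e-05), ENO1 one of -1.56 (adjusted p = 0.00015), GAPDH one of -1.24 (adjusted p = 0.00063) and PGAM1 one of -1.02 (adjusted p = 0.0096). Reads from near-identical copies of such genes may have been split or dropped by the counting. PGAM1 was at 847, 732 and 426 CPM in MC-F7 and at 372, 374 and 241 CPM in MT-F7. Its call was kept in 14 of the 17 alternatives and lost with the 3 limma settings on deposited TPM (adjusted p = 0.16, 0.14 and 0.081). PHGDH over PGAM1 was 0.341, 0.347 and 0.476 in the MC-F7 libraries, against 0.536, 0.482 and 0.643 in the MT-F7 libraries, 1.43-fold higher without overlap (exact permutation p = 0.1, adjusted 0.18), although PHGDH itself was lower in every MT-F7 library. PSAT1 over PGAM1 was 0.0103, 0.0114 and 0.0101 in the MC-F7 libraries, against 0.0466, 0.0473 and 0.0426 in the MT-F7 libraries, 4.29-fold higher (exact permutation p = 0.1, adjusted 0.18), and the SDs of its log2 value, 0.0970 and 0.0818, were the smallest within both groups among the ratios with PGAM1. SHMT2 over PGAM1 overlapped, with a log2 difference of 0.25 (exact permutation p = 0.3).

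With all 6 libraries and no block, none of AMT, GCSH and DLD passed by edgeR, DESeq2 or limma, and none reached an unadjusted p under 0.05 by edgeR. DLD passed without both replicate 3 libraries (log2 fold change -0.35, adjusted p = 0.049). GCSH, the lipoyl carrier protein, was at 81.3 ± 10.5 CPM in MC-F7 and 79.6 ± 12.5 CPM in MT-F7. Of 11 other folate enzymes 10 were tested and, in the same fits, 0 passed by edgeR, DESeq2 or limma, with 1 (ALDH1L1) at an unadjusted p under 0.05. ALDH1L1, named after its values were seen, passed without MC-F7 replicate 1 (-1.02, adjusted p = 0.027), without MT-F7 replicate 3 (-1.16, adjusted p = 0.014) and without both replicate 3 libraries (-0.92, adjusted p = 0.020). The 10 had a median of 0.08 on this scale. TYMS, which uses the folate carbon to make thymidylate, was at 189 ± 20.9 CPM in MC-F7 and 198 ± 24.0 CPM in MT-F7 (log2 fold change 0.07, adjusted p = 0.80). Of 15 genes that mark proliferating cells, 0 passed by edgeR, DESeq2 or limma in these fits, 3 had an unadjusted p under 0.05, and the median log2 fold change was 0.0088. CCNB1 and CDK1 passed without MC-F7 replicate 3 (-0.53 and -0.49, adjusted p = 0.040 and 0.046) and without both replicate 3 libraries (-0.38 and -0.40, adjusted p = 0.016 and 0.027).

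Of 12 carriers of folate, serine and glycine, 9 were tested, of which 3 fell and 1 rose, beside 11.3% and 11.9% of all tested genes. SLC1A5, a carrier of neutral amino acids at the cell surface, fell from 272 ± 30.8 to 171 ± 27.9 CPM (log2 fold change -0.67, adjusted p = 0.011). SLC25A32, the mitochondrial folate carrier, fell from 7.08 ± 1.21 to 4.29 ± 0.647 CPM (-0.72, adjusted p = 0.035), and SFXN2, a mitochondrial sideroflexin, from 39.6 ± 8.19 to 26.7 ± 5.06 CPM (-0.57, adjusted p = 0.049). SFXN3, of the same family, which moves serine into mitochondria, rose from 4.28 ± 0.578 to 11.2 ± 2.45 CPM (1.39, adjusted p = 0.00076). SFXN1, also of this family and named after its values were seen, did not pass. It was at 12.2 ± 1.86 CPM in MC-F7 and 8.99 ± 2.49 CPM in MT-F7 (-0.45, adjusted p = 0.17). SFXN3 kept its call whichever library was left out. SLC1A5 lost its call without MC-F7 replicate 2 (-0.60, adjusted p = 0.072) or MT-F7 replicate 2 (-0.55, adjusted p = 0.069). SLC25A32 and SFXN2 each lost theirs without MC-F7 replicate 2 or 3 or MT-F7 replicate 1 or 2, with adjusted p from 0.078 to 0.13 and from 0.074 to 0.18. SFXN2 also lost its call when only genes with 10 or more counts in each library were tested (-0.56, adjusted p = 0.054).

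In the methionine cycle and transsulfuration, 11 of 13 genes were tested, 2 fell and 0 rose, beside 11.3% and 11.9% of all tested genes. CBS, which joins serine to homocysteine, fell from 85.5 ± 5.60 to 44.4 ± 3.86 CPM, with 91.9, 82.4 and 82.1 CPM in MC-F7 and 41.9, 42.4 and 48.8 CPM in MT-F7 (log2 fold change -0.95, standard error 0.146, adjusted p = 0.00054). It passed under all 17 alternatives tried. GNMT, which puts a methyl group on glycine, fell from 4.98 ± 1.39 to 2.65 ± 0.501 CPM (-0.91, adjusted p = 0.032), and lost its call without MC-F7 replicate 1 (adjusted p = 0.13), MT-F7 replicate 1 (0.089) or MT-F7 replicate 3 (0.078). AHCY, which splits S-adenosylhomocysteine, was at 839 ± 21.0 and 680 ± 70.3 CPM, lower in every MT-F7 library, and did not pass (-0.30, adjusted p = 0.18).

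Genes of other routes from or to serine and glycine changed in both directions. CHDH, which starts choline oxidation, fell from 4.24 ± 1.19 to 1.10 ± 0.557 CPM (log2 fold change -1.94, adjusted p = 0.0024), and SARDH, which ends the same route at glycine, rose from 1.07 ± 0.468 to 4.68 ± 1.58 CPM (2.13, adjusted p = 0.0016). CHDH rests on 82, 84 and 120 counts in MC-F7 against 18, 22 and 41 in MT-F7. SARDH rests on 32, 13 and 27 against 81, 115 and 150. Of 4 genes listed for choline oxidation, 3 were tested, of which 1 fell and 1 rose, beside 11.3% and 11.9% of all tested genes. ALDH7A1, also tested, was at 103 ± 12.3 CPM in MC-F7 and 106 ± 19.0 CPM in MT-F7. It did not pass (log2 fold change 0.05, adjusted p = 0.87). Of the steps between CHDH and SARDH, BHMT, BHMT2 and DMGDH had counts at or near 0 and were not tested. Of 9 genes for serine use outside the folate cycle or for making glycine from threonine (TDH and GCAT), 2 fell, beside 11.3% of all tested genes. Both were subunits of serine palmitoyltransferase, which starts sphingolipid synthesis. SPTLC1 fell from 42.6 ± 2.87 to 25.8 ± 1.11 CPM (-0.73, adjusted p = 0.0035) and SPTLC2 from 35.03 ± 1.14 to 22.04 ± 2.29 CPM (-0.67, adjusted p = 0.0070). Beside 11.3% of all tested genes that fell, 1 of 8 purine synthesis genes did. This was PPAT, the first committed enzyme, with 61.8 ± 3.98 and 39.7 ± 5.45 CPM (-0.64, adjusted p = 0.010), whereas PAICS, a later enzyme of the route, was at 242 ± 33.1 and 189 ± 33.2 CPM (-0.36, adjusted p = 0.16).

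ATF4, a transcription factor known to drive PHGDH, PSAT1, SHMT2 and MTHFD2 when amino acids are short, and MYC family factors, known to act on several of the same genes, were also read. Of 15 tested genes of the ATF4 and amino acid response, 6 fell and 1 rose, beside 11.3% and 11.9% of all tested genes. TRIB3, a pseudokinase, had a log2 fold change of -1.61 (adjusted p = 0.015). ASNS, which makes asparagine, fell from 427 ± 64.6 to 168 ± 36.8 CPM (-1.35, adjusted p = 0.00029), CHAC1, which breaks down glutathione, fell by 1.27 on the log2 scale (adjusted p = 0.0019), and SLC7A5, a carrier of large neutral amino acids, fell by 0.93 (adjusted p = 0.0017). The remaining 3 that passed, named here after their values were seen, were ATF4 itself, at 574, 525 and 650 CPM in MC-F7 and 363, 412 and 391 CPM in MT-F7 (-0.58, adjusted p = 0.015), SLC3A2 (-0.77, adjusted p = 0.0054) and SESN2, which was higher (0.51, adjusted p = 0.044). PSAT1 was the one enzyme of the 10 that rose while ATF4 and ASNS fell. TRIB3 lost its call without MC-F7 replicate 2 (adjusted p = 0.061) or MT-F7 replicate 1 (0.067), ATF4 without MT-F7 replicate 1 (0.081), and SESN2 unless the library left out was MT-F7 replicate 3 (0.052 to 0.16). MYCN fell from 159 ± 13.0 to 74.8 ± 5.15 CPM (-1.08, adjusted p = 0.00019) and MYCL had a log2 fold change of -0.59 (adjusted p = 0.023, and 0.096 without MC-F7 replicate 2), whereas MYC was at 7.003 ± 1.60 and 5.91 ± 0.0777 CPM (-0.25, adjusted p = 0.46). Whether any of these factors acted on the enzymes was not tested.

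**Figure D4:**
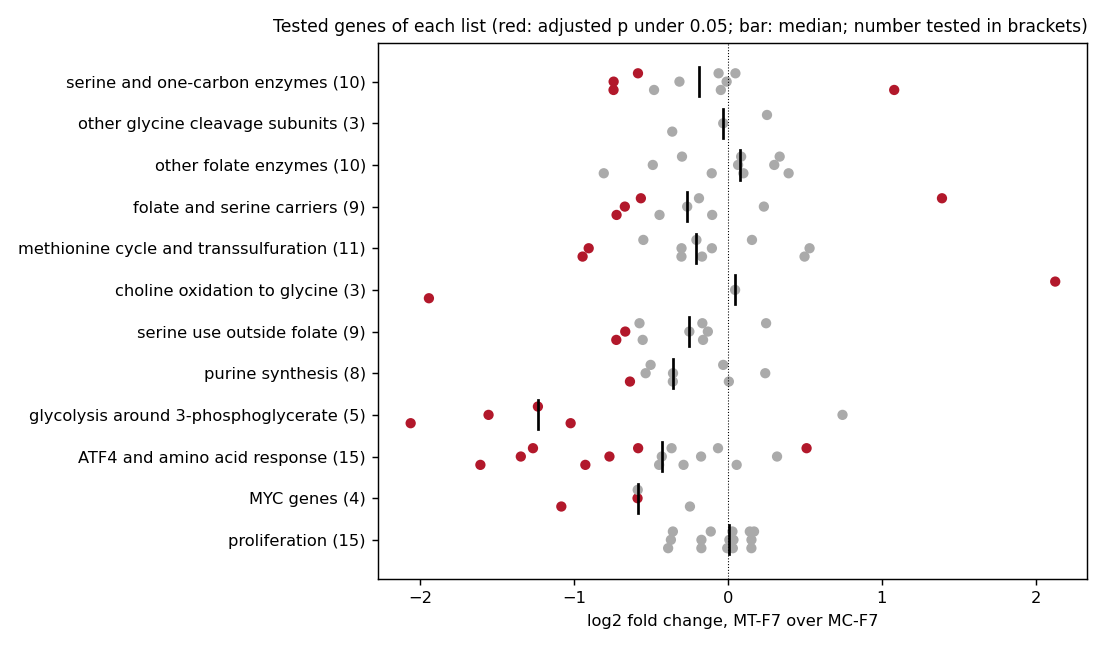
Log2 fold change of MT-F7 over MC-F7 (x axis) for every tested gene of the 10 enzymes and of 11 related lists (y axis, number of tested genes in brackets), in red where the adjusted p was under 0.05, with a black bar at each median. The medians run from -1.24 for the genes around 3-phosphoglycerate in glycolysis to 0.08 for the other folate enzymes, and PSAT1, SFXN3, SARDH and SESN2 are the red points right of 0.

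Over these 11 related lists together, 24 of the 92 tested genes passed, 3 higher and 21 lower, beside 23.2% of all tested genes, and their median log2 fold change was -0.23. The lists were written with earlier results of these data known, so the count describes them and is no independent support for a direction.

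The pattern of PSAT1, the enzyme with the largest change among those that passed, was compared with that of all tested genes by Pearson's r of log2(CPM + 0.5) over the 6 libraries. The 5 genes most like it were CETN2, STK3, NEXN, H3-3B and MEMO1, with r from 0.995 to 0.997. CETN2 was at 29.2, 30.1 and 18.7 CPM in MC-F7 and at 54.1, 53.2 and 34.6 CPM in MT-F7, so it shared with PSAT1 both the higher level in MT-F7 and the low replicate 3. With 6 libraries and 13001 genes such values are a description only.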

How the data were processed

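Per the submitters' processing notes and the study's methods, the authors aligned paired-end reads with HISAT2 2.0.5 to a Bos taurus genome from Ensembl (build not given in the sources used here), counted them with featureCounts 1.5.0-p3 and deposited raw counts per Entrez gene. The authors also deposited values they call TPM, 21653 lines of which 21357 genes were used, which do not add up to 1000000 per library.

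Symbols came from RefSeq (ARS-UCD2.0), and 89 identifiers had none. Genes that passed filterByExpr, at its minimum count of 10 and total of 15, were normalized by TMM (factors 0.971 to 1.04) and tested with edgeR 4.0.16 (R 4.3.3) without a block. Standard errors were the log2 fold change over the square root of F. Alternatives used DESeq2 1.42.0, limma 3.58.1 on log2(TPM + 1) and log2(TPM + 0.1), RLE factors or library size only, no filter or at least 10 counts in every library, a replicate block, each library left out, and the mitochondrial genome left out. Ratios were tested with scipy 1.17.1. The test was checked on simulated counts with 19163 genes, 200 of them changed, where it recovered 98% of changes of 2 and 70% of changes of 1 on the log2 scale.

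The enzymes and lists were chosen with earlier results of these data known. Named genes were the 10 enzymes, of each other list up to 4 that passed by size of change and up to 2 that did not by mean CPM, and the 5 genes most like the most changed enzyme. No protein or promoter sequence was used here.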

Additional observations from a re-analysis of the deposited data

How the results depend on the processing

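Replicates with the same number deviated from their group means with correlations of 0.134, 0.0445 and 0.417. Such correlations cannot show whether libraries with the same number were handled together, which is not stated. The main fit used no block. With the replicate block 4674 genes passed in place of 3016 and 5 of the 10 enzymes, PHGDH being added (log2 fold change -0.47, adjusted p = 0.0053). With the block 36% of the tested genes passed, and DLD, ALDH1L1, CCNB1, CDK1 and MCM4 also did.

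The number of enzymes that passed was 1 to 6 when 1 library was left out, and 0, 0 and 0 with limma on log2(TPM + 1), on log2(TPM + 0.1) and on TPM of at least 1. All genes that passed numbered 1914 to 3093 when 1 library was left out (1914 without MC-F7 replicate 2) and 1399 with limma on TPM of at least 1. The related lists gave 15, 15 and 11 genes with the 3 limma settings in place of 24. In that order the log2 fold changes of enzymes that no longer passed were -0.59, -0.61 and -0.59 for SHMT2, -0.24, -0.42 and -0.24 for SHMT1, -0.36, -0.61 and -0.36 for MTHFD2, and 0.55 and 1.09 for PSAT1, which the last filter removed with ALDH1L2. Library size remains in the deposited TPM values, so these log2 fold changes are not directly comparable with those of edgeR. The group means of deposited TPM were 0.563 to 1.64 for SHMT1, MTHFD2 and PSAT1. Adding 1 to values of this size pulls log2 fold changes towards 0. Why the calls were lost was not tested. PHGDH passed by DESeq2 (-0.48) and without both replicate 3 libraries (-0.50), and MTHFD1L without both (-0.42).

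With 1 library left out the log2 fold change ran from -0.61 to -0.36 for PHGDH, 0.82 to 1.29 for PSAT1, -0.241 to 0.101 for PSPH, -0.66 to -0.47 for SHMT1, -0.0273 to 0.136 for MTHFD1, -0.95 to -0.53 for MTHFD2, -0.51 to -0.16 for MTHFD1L, -0.216 to 0.0794 for ALDH1L2, -0.0207 to 0.155 for TYMS and -0.112 to 0.0866 for GCSH. Directions that turned, none of them called, were PSPH at 0.0729, 0.0809 and 0.0729 with the 3 limma settings, GLDC at 0.0606, 0.0816 and 0.0606 with these and 0.0568 without both replicate 3 libraries, ALDH1L2 at 0.0313 and 0.0848 with limma, 0.00906 with library size only and 0.117 without both replicate 3 libraries, and GCSH at 0.0896, 0.0942 and 0.0896 with limma and 0.0342 without both. The causes were not tested. The 9 ratios kept their directions under the alternatives tried for them. For ratios without overlap, leaving out libraries could not have turned the direction. The deposited TPM of an enzyme is its count over a constant, so TPM could not turn a ratio between enzymes either. CBS, PGK1, ENO1, GAPDH, ASNS, SLC7A5, SLC3A2, SPTLC1 and MYCN passed under all 17 alternatives.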

Other observations

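Among the genes of the related lists, 7 had counts that were too low to be tested. FOLR1, a folate receptor, had counts of 0, 0 and 3 in the MC-F7 libraries, against 0, 0 and 0 in the MT-F7 libraries, and FOLR2 had counts of 4, 0 and 1 in the MC-F7 libraries, against 6, 7 and 3 in the MT-F7 libraries. SLC7A11, the cystine carrier, had counts of 6, 7 and 0 in the MC-F7 libraries, against 1, 0 and 4 in the MT-F7 libraries. DMGDH, the step of choline oxidation before SARDH, had counts of 0, 1 and 0 in the MC-F7 libraries, against 2, 0 and 0 in the MT-F7 libraries. BHMT2, in addition to these 7, was at 0 counts in all 6 libraries. At this depth the counts of these genes were too low for a difference to be tested.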
